A study of Homo sapiens with 6 samples.

Results

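This account covers 10 genes for secreted signals, 7 chemokines and 3 cytokines of the IL-6 family: CXCL1, CXCL2, CXCL3, CXCL5, CXCL8, CCL2, CCL20, IL6, LIF and IL11. They are 10 of the 58735 genes in the count table, found by symbol, and were chosen by their known function together with their measured response to curcumol in these same libraries. Their values between the groups are therefore given as a description, and nothing is read from a test of them. The lists of other genes set beside them were also drawn up with earlier results of these data known. Genes were named from these lists mainly by smallest p. Their counts and p-values below are therefore descriptive too, and are not independent tests. The cells were ACHN, an established human renal carcinoma line labelled as wild type and as clear cell renal cell carcinoma. There were 3 control and 3 curcumol libraries of poly(A)-selected RNA, described as independent biological replicates of 1 line. Curcumol is a sesquiterpenoid of Curcuma rhizomes. Neither dose nor duration of treatment is stated in the sources used here. For the control, the sample labels name a vehicle, while the series design says that it received no drug. The series asked how curcumol acts on glycolysis and malignant behaviour.

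Chemokines are small secreted proteins that steer the migration of leukocytes. CXCL1, CXCL2, CXCL3, CXCL5 and CXCL8 carry the ELR motif, bind CXCR2 (CXCL8 also CXCR1) and attract neutrophils. CCL2 attracts monocytes through CCR2, and CCL20 attracts lymphocytes and dendritic cells through CCR6. IL-6, IL-11 and LIF signal through receptor complexes that share gp130, the product of IL6ST, and that activate JAK kinases and STAT3. Many of these genes are induced by NF-kB and AP-1, and many of their mRNAs are short-lived because AU-rich elements in the 3' UTR recruit decay proteins. Carcinoma cells of the kidney are known to secrete several of them.

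The promoters of the genes on which the results turn are shown here because the members are often described as sharing an NF-kB site. RefSeq windows (GRCh38.p14) of 250 bases before to 50 bases after the start were given for 8 of the 10 genes, and CCL2 and LIF had none. The stretches below are the 140 bases before the start, 5' to 3' on the gene's strand. They lie at chr4:73869253-73869392 (plus strand), chr4:74099196-74099335 (minus strand), chr4:74038690-74038829 (minus strand), chr4:73740429-73740568 (plus strand), chr7:22727060-22727199 (plus strand) and chr19:55370464-55370603 (minus strand), in this order. Capitals mark matches, on either strand, to any of 3 motifs. The kappaB-type motif is GGNNTTTCC, where N is any base. The motif bound by AP-1 was searched for as TGANTCA. The TATA box, which places the start of transcription in many inducible genes, was searched for as TATAAA. Matches of different motifs did not overlap.
CXCL1: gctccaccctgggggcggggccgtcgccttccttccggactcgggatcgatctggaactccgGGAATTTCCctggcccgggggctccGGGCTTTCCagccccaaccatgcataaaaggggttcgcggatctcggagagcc
CXCL2: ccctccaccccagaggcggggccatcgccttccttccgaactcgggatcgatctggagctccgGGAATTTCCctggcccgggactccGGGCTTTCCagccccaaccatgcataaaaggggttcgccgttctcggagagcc
CXCL3: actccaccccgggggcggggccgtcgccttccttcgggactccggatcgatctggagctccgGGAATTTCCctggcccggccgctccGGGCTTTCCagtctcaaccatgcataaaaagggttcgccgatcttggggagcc
CXCL8: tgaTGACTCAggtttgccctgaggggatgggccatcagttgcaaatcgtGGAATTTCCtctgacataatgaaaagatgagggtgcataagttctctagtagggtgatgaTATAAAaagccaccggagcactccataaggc
IL6: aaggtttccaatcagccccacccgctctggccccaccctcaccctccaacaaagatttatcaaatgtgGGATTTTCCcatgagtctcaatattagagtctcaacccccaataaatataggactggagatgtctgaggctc
IL11: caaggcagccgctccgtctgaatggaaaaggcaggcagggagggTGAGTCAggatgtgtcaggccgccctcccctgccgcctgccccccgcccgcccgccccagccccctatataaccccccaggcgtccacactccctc

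CXCL1, CXCL2 and CXCL3 each held the kappaB-type motif at 2 places, with the inner one 53 to 45 bases before the start in each. The stretches of CXCL1 and CXCL2 were 91.5% identical, those of CXCL1 and CXCL3 90.7% and those of CXCL2 and CXCL3 87.9%, while CXCL8 matched CXCL1 over 44.8% of aligned bases. CXCL8 held an AP-1 match 137 to 131 bases before its start. Over the whole 300-base windows, 7 of 8 members held the kappaB-type motif and 6.26% of all 35116 windows did. IL11 was the member without it, and held an AP-1 match, which 2 of 8 members and 7.71% of all windows held. TATAAA was in 2 of 8 (CXCL8 and CCL20) and in 11.5% of all windows. Such matches are letters in a window and were not tested for binding.

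**Figure D1:**
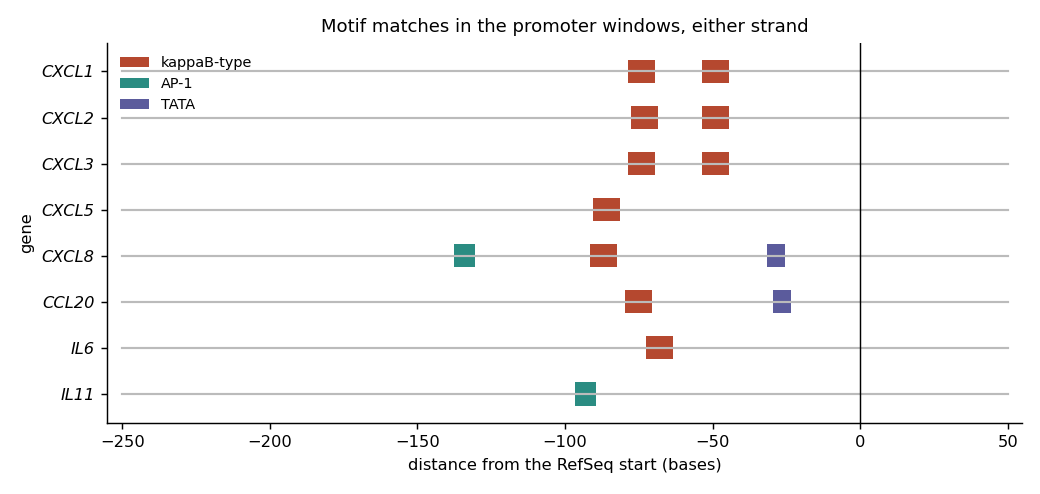
Positions of motif matches on either strand in the promoter windows of 8 genes; the x axis is the distance from the RefSeq start in bases and each bar is 1 match. CXCL1, CXCL2 and CXCL3 have 2 kappaB-type matches each at nearly the same distances, and IL11 has an AP-1 match and no kappaB-type match.

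Libraries held 16962012 to 17827433 counts, and 15160 genes passed the filter on low counts. The labelled cell type was checked on its markers. KRT8 averaged 1970 CPM (counts scaled to a common library size, with TMM factors between libraries) in control and 1326 in curcumol, VIM 1247 and 938, MET 720 and 473, and PAX8, the renal lineage factor, 192 and 60.1. Of 11 renal and epithelial markers tested, 0 were higher and 8 lower in curcumol (edgeR, adjusted p under 0.05). Of all tested genes, 39.4% were higher and 40.3% lower, 79.7% in all. The 12 markers listed summed to 5150 to 5520 CPM in control and 3470 to 3950 CPM in curcumol. CA9, a defining marker of the clear cell type, had 0 to 3 counts per library, and NDUFA4L2 had 21 to 39. Among 13 leukocyte markers, CD3E, CD3D, FCGR3A and MPO had 0 counts in every library, and the summed level of all 13 ran from 1.91 to 2.12 CPM in control and from 8.84 to 9.36 CPM in curcumol. PTPRC, the pan-leukocyte marker, had 0 counts in each control library and 5, 8 and 7 in curcumol. Of the 4 tested, 3 rose and 1 fell: the counts of CD14 were 0, 3 and 2 against 71, 77 and 67, those of CD79A 1, 0 and 0 against 18, 19 and 24, those of CSF1R 16, 9 and 4 against 38, 28 and 31, and those of ITGAM 20, 27 and 28 against 5, 10 and 3. The 6 endothelial markers summed to 0.155 to 0.161 CPM and to 0.384 to 1.26 CPM. The 7 fibroblast markers summed to 7.12 to 8.29 CPM in control and to 6.28 to 19.2 CPM in curcumol. The part of such markers in the results below was not tested. Curcumol replicate 2 stood apart in stromal genes: COL1A2 had 70 counts there and at most 1 in any other library, and LUM had 22 there and 0 elsewhere. Without that library the 8 measurable genes had log2 fold changes of -4.84 (CXCL1), -4.92 (CXCL2), -1.72 (CXCL3), -0.37 (CXCL8), 0.81 (CCL2), -3.06 (IL6), -1.41 (LIF) and 2.67 (IL11), each in the direction found with it.

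The ELR chemokines CXCL1 and CXCL2 were far lower in curcumol-treated cells, IL6, LIF and CXCL3 were lower, CXCL8 was slightly lower, and CCL2 and IL11 were higher. CXCL5 and CCL20 had too few counts to be tested. Of the 8 genes with enough counts, 6 were called lower and 2 higher by edgeR, where 40.3% and 39.4% of all tested genes were, 79.7% in all. Their groups of libraries did not overlap in 8 of 8, which was so for 81% of tested genes. This contrast helped to choose the genes, so nothing is read from these counts. Their median log2 fold change was -1.56, beside -0.02 over all genes tested. In bulk RNA, fewer cells that make a transcript and less of it per cell cannot be told apart.

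**Figure D2:**
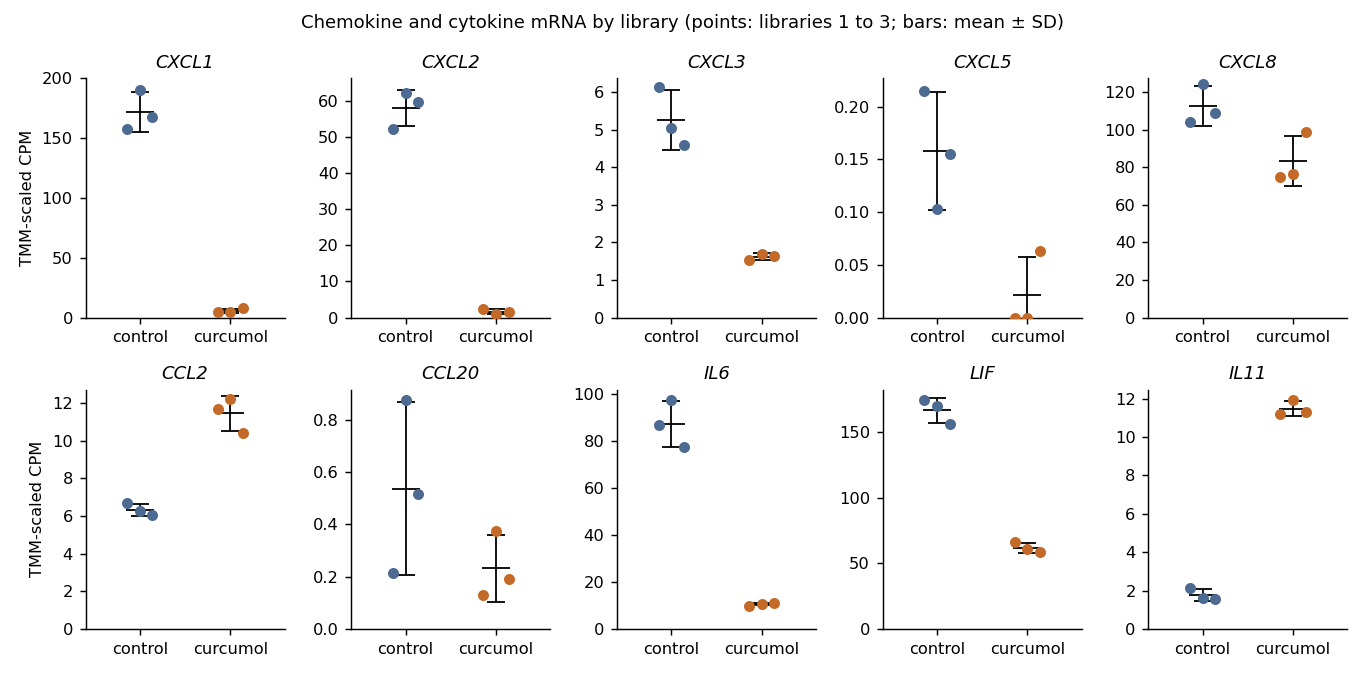
Level of each of the 10 genes in TMM-scaled CPM (y axis, linear from 0, its own scale per gene) in the 3 control and the 3 curcumol libraries; points are libraries, bars the mean and SD. The groups are apart in every panel except that of CCL20. CCL2 and IL11 are the 2 with higher curcumol points, and CXCL5 and CCL20 lie under 1 CPM.

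CXCL1, a neutrophil attractant also called GRO-alpha (ENSG00000163739, chromosome 4, 73869393 to 73871242, GRCh38), stood at 157, 191 and 168 CPM in the control libraries and at 4.29, 4.96 and 7.64 CPM in the curcumol libraries. The lowest control library was many times above the highest curcumol library, which was replicate 3. The means were 172 ± 17 and 5.63 ± 1.77 CPM (SD, n = 3), and the log2 fold change was -4.93 ± 0.15 (SE), a 30.5-fold lower level. CXCL2, its close paralogue GRO-beta (ENSG00000081041, chromosome 4, 74097035 to 74099293), read 52.4, 62.2 and 59.7 CPM in control and 2.24, 0.942 and 1.58 CPM in curcumol. It was 36.5-fold lower, with a log2 fold change of -5.19 ± 0.16 (SE). In curcumol it rested on 35, 15 and 25 counts. Its 3 curcumol libraries differed more in relative terms (41.0% of the mean) than those of control (8.78%). At 24, 27 and 26 counts, the curcumol libraries of CXCL3 differed by 4.94% of the mean. The cause of the spread in CXCL2 was not tested. Of the 15160 genes tested, 16 had a fitted change as low as that of CXCL2 and 24 as low as that of CXCL1, each counting the gene itself.

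CXCL3, or GRO-gamma, the third close paralogue (ENSG00000163734, chromosome 4, 74036589 to 74038807), was a minor transcript, with 6.13, 5.06 and 4.59 CPM in control and 1.54, 1.70 and 1.64 CPM in curcumol. The groups did not overlap, and the log2 fold change was -1.69 ± 0.23 (SE), or 3.23-fold lower, much less than those of CXCL1 and CXCL2. The 3 coding sequences are 90.7% to 94.4% identical. Of the 50-base stretches of the CXCL3 mRNA, 5.26% also occur in CXCL2 and 0.585% in CXCL1. In turn, 4.62% of those of CXCL2 and 0.57% of those of CXCL1 occur in CXCL3. Some reads could therefore be counted for the wrong gene. For CXCL3 these need not be a small part. It had 89 to 114 counts in control, against 973 to 1205 for CXCL2 and 2926 to 3696 for CXCL1. Their part in the fold change of CXCL3 was not tested. The sources used here do not say how such reads were counted. Summed as 1 gene, the 3 had a log2 fold change of -4.73 ± 0.11 (SE).

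CXCL8, which encodes interleukin-8 and lies in the same cluster on chromosome 4 (ENSG00000169429, 73740506 to 73743716), differed far less between the groups. Its levels were 104, 125 and 109 CPM in control and 74.8, 76.2 and 98.7 CPM in curcumol. The groups came close, the highest curcumol library, again replicate 3, at 98.7 CPM against 104 CPM in the lowest control library. The log2 fold change was -0.435 ± 0.10 (SE), or 1.35-fold lower. It was -0.70 with library totals in place of TMM, and -1.19 with an offset for GC content, since the CXCL8 transcript has 33.4% GC where the median tested gene has 48.0%. Across the tested genes log2 fold change ran against GC content (Spearman rho -0.34, genes not being independent replicates). Under each of the 15 fits the value for CXCL8 stayed below 0 and that for CXCL1 was at most -4.77.

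CXCL5, made by epithelial cells in inflammation (chromosome 4, 73995642 to 73998779), was counted 4, 2 and 3 times in the control libraries and 0, 0 and 1 times in the curcumol libraries. These 9 and 1 counts give a ratio of 0.134 (exact 95% interval 0.00307 to 0.971, counting error only). A count of 0 allows up to 3 counts, which is 0.155 to 0.192 CPM across all libraries of both groups. No fold change was fitted. Per kilobase of joined exons, so that genes can be set beside each other, CXCL1 made up 59.4% ± 0.446 of the summed level of the 5 ELR chemokines in control and CXCL8 22.2% ± 0.278 (SD, n = 3). In curcumol CXCL8 made up 85.7% ± 0.808 and CXCL1 10.01% ± 1.46. CXCL2 made up 17.3% ± 0.693 in control and 2.52% ± 1.21 in curcumol. The make-up was nearly the same in the 3 libraries of a group, and the leading transcript was CXCL1 in each control library and CXCL8 in each curcumol library. The 5 together summed to 348 ± 31.6 CPM in control and 92.1 ± 15.2 CPM in curcumol.

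**Figure D3:**
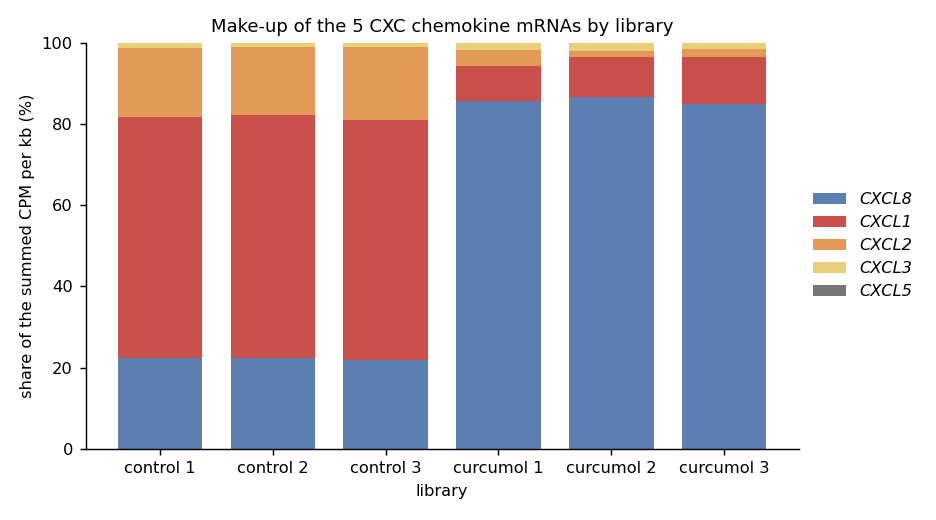
Share of each ELR chemokine in the summed level of the 5 (y axis, percent of CPM per kilobase of joined exons) in each library; each bar is 1 library. CXCL8 takes 21.8% to 22.4% in the control libraries and 84.9% to 86.5% in the curcumol libraries, and CXCL5 is too small to be seen.

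Neither CC chemokine exceeded 12.24 CPM in any library, before any allowance for length. CCL2, or MCP-1 (ENSG00000108691, chromosome 17, 34255218 to 34257203), had 6.67, 6.29 and 6.04 CPM in control and 11.7, 12.2 and 10.4 CPM in curcumol. It was higher in each curcumol library than in any control library, by 1.81-fold and a log2 fold change of 0.855 ± 0.14 (SE), which was 0.52 with a GC offset. CCL20 (chromosome 2, 227805739 to 227817564) was counted 4, 17 and 10 times in the control libraries and 2, 6 and 3 times in the curcumol libraries. The groups overlapped, control replicate 1 lying below curcumol replicate 2, and the ratio of summed counts was 0.429 (exact 95% interval 0.195 to 0.878, counting error only).

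In the IL-6 family, IL6 and LIF were lower and IL11 was higher. IL6, an inflammatory cytokine (ENSG00000136244, chromosome 7, 22725884 to 22732002), had 86.8, 97.4 and 77.4 CPM in control and 9.93, 10.8 and 10.9 CPM in curcumol. The curcumol libraries lay close together, and the log2 fold change of -3.05 ± 0.10 (SE) corresponds to 8.27-fold lower. LIF, known for holding stem cells undifferentiated and for growth of some tumours (ENSG00000128342, chromosome 22, 30240447 to 30246851), was an abundant transcript, above 92.7% of tested genes in control before any allowance for length. It had 174, 170 and 156 CPM in control and 66.0, 60.7 and 58.7 CPM in curcumol, without overlap. Its log2 fold change was -1.43 ± 0.07 (SE), or 2.70-fold lower, and -0.98 with a GC offset. IL11, a cytokine of stromal and epithelial cells linked to fibrosis (ENSG00000095752, chromosome 19, 55364389 to 55370463), had 2.15, 1.599 and 1.55 CPM in control and 11.2, 11.9 and 11.3 CPM in curcumol. It was 6.49-fold higher in curcumol, with a log2 fold change of 2.70 ± 0.18 (SE). IL6 shares 428 exonic bases with AC073072.1 and LIF 175 with AC004264.1, both on the other strand, with 173 and 76 counts over all libraries.

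Per kilobase of joined exons, LIF and IL6 were at like levels in control, with 49.6% ± 2.01 and 49.6% ± 2.11 of the summed level of the 3 IL-6 family genes, and IL11 made up 0.781% ± 0.136 (SD, n = 3). In curcumol LIF made up 62.3% ± 2.21, IL6 20.4% ± 1.51 and IL11 17.2% ± 0.774. IL11 was thus nearer to IL6 in level there than in control, at 4.30 against 5.09 CPM per kilobase. It was still below IL6 by more than either SD, and per kilobase of mRNA they stood at 5.03 and 6.90. Ordered by level per kilobase in control, CXCL1 led at 133 ± 13.1, followed by CXCL8 (49.5 ± 4.66), IL6 (42.1 ± 4.82), LIF (42.0 ± 2.42) and CXCL2 (38.7 ± 3.40). IL6 and LIF, and LIF and CXCL2, differed by less than the larger of their SDs, while CXCL8 was above IL6 by more than either SD. With mRNA length in place of joined exons CXCL2 (47.7) came before LIF (42.0), and IL6 stood at 57.1. CCL2 (3.19 ± 0.160), CXCL3 (2.37 ± 0.356), IL11 (0.662 ± 0.125), CCL20 (0.336) and CXCL5 (0.0622) followed. In curcumol the order was CXCL8 (36.6 ± 5.89), LIF (15.6 ± 0.953), CCL2 (5.77 ± 0.474), IL6 (5.09 ± 0.252), CXCL1 (4.35 ± 1.37) and IL11 (4.30 ± 0.147). CXCL2 (1.06 ± 0.433) and CXCL3 (0.732 ± 0.0362) came next. CXCL1 differed from IL6 and from IL11, and CXCL2 from CXCL3, by less than the larger SD. These gaps depend on the length used: per kilobase of mRNA, CCL2 (15.5) was level with LIF (15.6) in curcumol, and CXCL3 (1.51) came before CXCL2 (1.30).

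**Figure D4:**
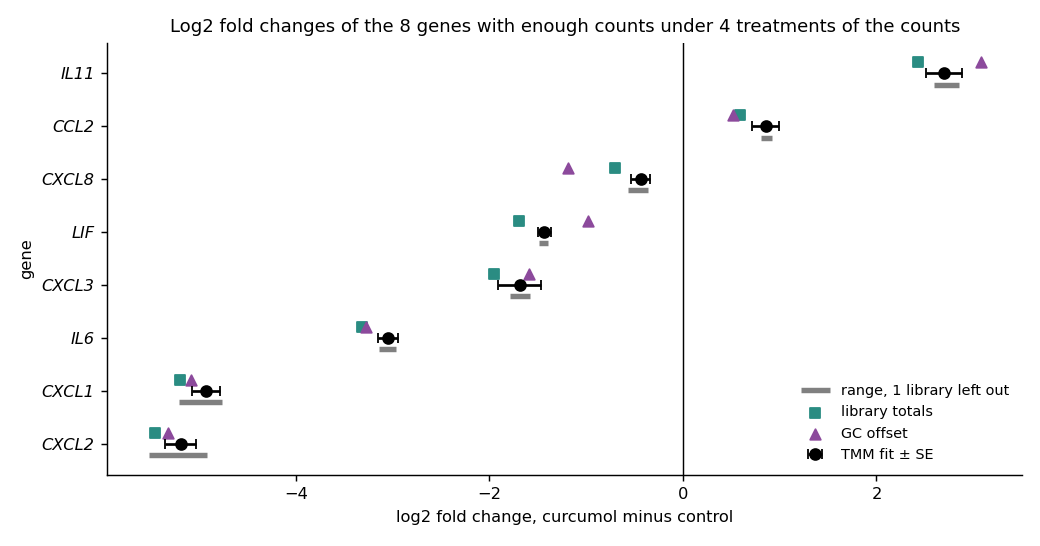
Log2 fold change (x axis, curcumol minus control) of the 8 genes with enough counts; black points are the TMM fit with its SE, squares library totals, triangles a GC offset, and grey lines the range with 1 library left out. CXCL1 and CXCL2 lie near -5, IL6 near -3, CCL2 and IL11 above 0 in each fit, and CXCL8 moves from -0.435 to -1.19 with the GC offset.

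Outside the promoter, the 3' UTRs were searched for the AU-rich pentamer ATTTA, the letters read by the decay proteins of the ZFP36 family. The pentamer occurred in the 3' UTR of each of the 10 and of 62.5% of all protein-coding genes that have one, from once in CCL2 to 11 times in CXCL5. The median of those 19137 genes was 1, the count of CCL2. Per kilobase of 3' UTR it ran from 2.19 in LIF to 13.99 in IL6, and the median over all genes was 1.31. The nonamer ATTTATTTA was found in CXCL1 (2), CXCL2 (4), CXCL8 (1) and IL11 (3), and in 5.94% of all genes. In the list of decay and stability factors, 11 of 19 genes rose and 4 fell (edgeR, adjusted p under 0.05), with a median of 0.29. These are 57.9% and 21.1%, beside 39.4% and 40.3% of all tested genes. With library totals 9 rose and 8 fell. ZFP36, or tristetraprolin, which binds AU-rich elements and promotes decay, went from 7.64, 8.36 and 6.35 CPM to 57.9, 56.6 and 57.8 CPM. That is a log2 difference of 2.95 ± 0.10 (SE; by edgeR, adjusted p = 2.00e-16). Its relative ZFP36L1 went the other way, from 264, 259 and 268 CPM to 81.4, 85.9 and 82.4 CPM (-1.66 ± 0.06). RC3H1 (roquin-1, 2.27) and PAN3 of the deadenylase complex (1.37) rose, HNRNPD (AUF1, -0.76) and the kinase gene MAPK14 (p38 alpha, -0.755) fell. With a GC offset HNRNPD stood at -1.42 and PAN3 at 0.80.

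The cells measured here had no counts for the receptors of most of these chemokines, but expressed receptors for the IL-6 family, most of which rose. CXCR1, CXCR2, CCR2, CCR6 and ACKR1, an erythrocyte and endothelial chemokine scavenger, had 0 counts in every library, which allows up to 3 counts each. ACKR2, ACKR3 and CNTFR had at most 3 in any library. Of the 5 receptor genes tested 4 rose and 1 fell, with a median of 1.19, where 39.4% and 40.3% of all tested genes rose and fell. IL6R, the IL-6 binding subunit, had 21.5, 22.3 and 15.5 CPM in control and 93.5, 98.1 and 88.7 CPM in curcumol, a log2 difference of 2.24 ± 0.11 (SE; by edgeR, adjusted p = 2.45e-13). So the groups lay far apart for IL6R, in the direction opposite to IL6 itself. LIFR, the LIF receptor, read 7.26, 9.75 and 11.2 CPM in control and 37.98, 41.4 and 36.3 CPM in curcumol (2.04 ± 0.12, edgeR adjusted p = 1.68e-12), while LIF was lower. The shared subunit gp130 (IL6ST) rose by 1.19 ± 0.08 and the oncostatin M receptor (OSMR) by 0.50 ± 0.06. OSMR is counted in this list although oncostatin M is not among the ligands described here. With a GC offset LIFR stood at 1.38, IL6ST at 0.55 and OSMR at 0.32, all still passing. IL11RA, the receptor of IL-11, fell by 1.24 on the log2 scale from 20, 28 and 30 counts to 8, 12 and 7, so that it too ran against its ligand. It did not pass with a GC offset (-0.81), and it shares 334 exonic bases with GALT on its own strand. OSMR shares 229 exonic bases with RICTOR on the other strand, and whether strand was used in counting is unknown.

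Genes of the JAK-STAT3 route downstream of these receptors went both ways. Of 20 genes, all tested, 8 rose and 10 fell, with a median of -0.16. These are 40% and 50%, where 39.4% and 40.3% of all tested genes rose and fell. The kinase TYK2 (-1.49) and the feedback inhibitor SOCS2 (-1.65) fell, and SOCS5 (1.25) and the STAT inhibitor PIAS1 (1.12) rose. SOCS3, the main feedback inhibitor of gp130 and itself a STAT3 target, rose from 37.3, 38.3 and 34.9 CPM to 71.0, 65.5 and 70.9 CPM (0.91 ± 0.08, edgeR adjusted p = 4.52e-10). STAT3, named here after its value was seen, changed little, from 172 ± 4.97 to 137 ± 2.70 CPM (SD, n = 3), which is -0.33 on the log2 scale (edgeR adjusted p = 2.36e-05). With a GC offset TYK2 stood at -0.84, SOCS3 at 1.51 and SOCS5 at 0.64.

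Upstream, the receptors and adaptors through which IL-1, IL-17, TNF and Toll-like ligands induce chemokines were also split, with 14 of 35 tested genes higher, 11 lower and a median of -0.01. These are 40% and 31.4%, beside 39.4% and 40.3% of all tested genes. With library totals 12 were higher and 17 lower. TRAF6, the ubiquitin ligase of IL-1 and Toll-like signalling, rose to 43.4 ± 2.92 CPM from 10.9 ± 0.167 CPM (SD, n = 3), a log2 difference of 1.996 ± 0.10 (SE; edgeR, adjusted p = 4.14e-14). TOLLIP, an inhibitor of that route (1.31), and IL1RAP, the IL-1 receptor accessory protein (1.29), rose. The kinase IRAK1 (-1.37), the TNF receptor adaptor TRADD (-1.53) and TAB1 (-1.44) fell, and with a GC offset stood at -0.66, -0.75 and -0.82. Of 21 NF-kB subunits, kinases and inhibitors 7 rose and 8 fell (median -0.02), with 6 and 12 under library totals and 13 and 4 with a GC offset. The shares that rose and fell, 33.3% and 38.1%, were a little below those of all tested genes. CYLD, a deubiquitinase that restrains NF-kB, rose from 30.2 ± 1.59 to 158 ± 16.7 CPM (2.39 ± 0.08, edgeR adjusted p = 1.26e-16), and NFKBIB (1.52, and 2.14 with a GC offset) and the kinase MAP3K8 (1.965) rose. NFKBIA, the inhibitor that is itself an NF-kB target, had 66.8, 72.4 and 60.2 CPM in control and 18.1, 17.3 and 18.3 CPM in curcumol (-1.89 ± 0.09, edgeR adjusted p = 2.68e-14). NFKBIZ, a nuclear cofactor for IL6 and CXCL transcription, changed by -1.32 and NFKB1 by -0.65.

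Among other genes known as targets of NF-kB or IL-1, 9 of 22 tested fell and 4 rose, with a median of -0.34 beside -0.02 over all genes. The share that fell, 40.9%, was close to the 40.3% of all tested genes, and the share that passed in either direction, 59.1%, was below the 79.7% of all. With library totals 14 fell and 3 rose. PLAU, urokinase, fell from 825, 896 and 792 CPM to 134, 123 and 106 CPM, a log2 difference of -2.79 ± 0.08 (SE; by edgeR, adjusted p = 6.60e-17). It shares 916 exonic bases with C10orf55 on the other strand. Complement C3 (-1.71) and TNFAIP6, a hyaluronan-binding inflammatory protein (-1.26), fell as well, and C3 stood at -1.28 and TNFAIP6 at -1.90 with a GC offset. CEBPB, a transcription factor that binds the IL6 promoter (0.60), the acute phase gene SAA1 (0.74) and EFNA1 (0.38) rose, EFNA1 not under library totals (0.11). With a GC offset CEBPB stood at 1.41. The other 9 tested genes did not pass.

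**Figure D5:**
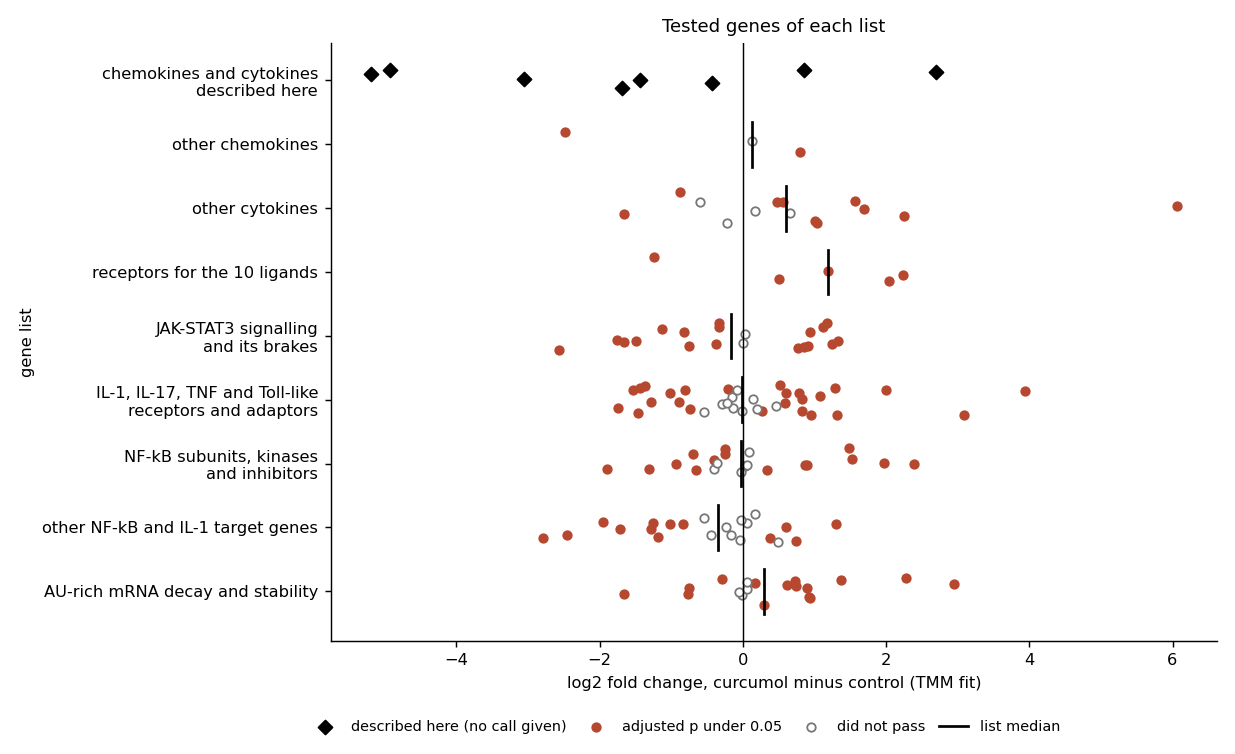
Log2 fold change (x axis, curcumol minus control, TMM fit) of each tested gene by list (y axis). Filled points passed the edgeR test (adjusted p under 0.05) and open points did not. Black lines are list medians, and diamonds are the genes described here, with no call marked. The receptor list, which includes the oncostatin M receptor OSMR, has 4 of its 5 points above 0. The other lists have filled points on both sides of 0, and the far right cytokine is LTA, near 0 counts in control.

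Other ligand genes gave a background for the 10. Of 35 further chemokine genes 23 had 0 counts in all libraries and 3 were tested. CX3CL1, a membrane-bound chemokine also known as fractalkine, fell from 9.36, 8.82 and 8.57 CPM to 1.92, 1.26 and 1.58 CPM (-2.49 ± 0.20, edgeR adjusted p = 2.16e-10). CXCL16 rose by 0.79 ± 0.17 (edgeR adjusted p = 2.47e-04), or 1.19 with a GC offset, and shares 85 exonic bases with MED11. CCL28, the tested gene that did not pass, stood at 0.13. CXCL6, another ELR chemokine, had 1 count in all. CXCL14 had 43 counts in curcumol replicate 2 and 0 in the other libraries, in the library with the COL1A2 and LUM counts given above. Of 55 further cytokine genes 14 were tested, and 8 rose and 2 fell (median 0.61), or 8 and 4 with library totals. The first counts are 57.1% and 14.3%, beside 39.4% and 40.3% of all tested genes. IL18, an inflammasome-processed cytokine, rose from 13.8, 14.8 and 16.98 CPM to 45.9, 47.4 and 53.4 CPM (1.69 ± 0.10, edgeR adjusted p = 1.02e-12). IL12A (2.25) and IL15 (1.03), which act on lymphocytes, rose, and EBI3 (-1.66) and the macrophage growth factor CSF1 (-0.88) fell. With a GC offset IL18 stood at 1.16, IL15 at 0.48, EBI3 at -1.09 and CSF1 at -0.30, and each still passed.

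The genes whose pattern over the 6 libraries was nearest to that of a member were found by the root mean square difference of log2 CPM, each gene set to its control mean, among 10430 candidates. For CXCL1 these were LFNG (0.41), CXCL2 (0.47) and PADI2 (0.55), for CXCL8 PAFAH2 (0.04), RHOBTB1 (0.06) and SEMA4D (0.07), and for IL6 NAGLU (0.10), MLPH (0.12) and SHISAL1 (0.12). Each measure rests on 6 libraries and is a description.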

How the data were processed

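Poly(A)-selected RNA of ACHN cells was sequenced in pairs, per the labels' protocols. The authors deposited 1 table of raw counts per gene, whole numbers that are not normalized. The build is GRCh38, per the submitters' processing notes. The sources used here name no aligner, counting tool or strand setting. All 58735 identifiers were found in GENCODE 29, which gave positions, exon lengths, GC content and 3' UTRs.

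Genes were filtered with filterByExpr (15160 kept). After TMM scaling, edgeR 4.0.16 gave quasi-likelihood tests in R 4.3.3 (two-sided, Benjamini-Hochberg over all tested genes, threshold 0.05). SE is the absolute log2 fold change over the square root of F. P-values weigh the difference between groups against the spread between 3 libraries a group, estimated with information shared across genes. Intervals and count limits cover counting error only. The 10 genes and the gene lists were chosen with earlier results of these data known. Named list genes are the 3 with the smallest p in each direction with a mean of at least 50 counts, and every tested receptor. A gene that this rule names in the JAK-STAT3 list is not reported here. The code was tested on simulated counts. Chi-square over its degrees of freedom was 3.62 to 8.74 between libraries of a group, more than counting error alone would give. It cannot tell separate cultures from separate preparations of the same RNA. Alternatives were DESeq2 1.42.0, limma-voom (limma 3.58.1), RLE factors, library totals, 2 other filters, a replicate block, a GC offset (spline, 5 degrees of freedom), CXCL1, CXCL2 and CXCL3 summed, and each library left out. The planned protein comparison was replaced by one of coding sequences.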

Additional observations from a re-analysis of the deposited data

How the results depend on the processing

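Each of the 8 measurable genes kept its direction under every alternative run. Their median log2 fold change of -1.56 was -1.83 with library totals, -1.39 with a GC offset, -0.93 with CXCL1, CXCL2 and CXCL3 summed (which leaves 6 features) and -1.64 to -1.49 with 1 library left out. The median over all genes, -0.02 with TMM, was -0.28 with library totals. With them the cytokine list had 4 genes lower, the list of IL-1, IL-17, TNF and Toll-like receptors and adaptors 17, the NF-kB and IL-1 targets 14 and the AU-rich decay list 8. With a GC offset the NF-kB subunit list had 13 genes higher and 4 lower, and the receptor list 0 lower. Without a filter 3 other chemokines were higher and 4 other cytokines lower. With a mean of at least 50 counts 5 other cytokines were higher and 0 receptors lower, since fewer genes were tested. With 1 library left out 1 to 2 other chemokines were higher, 2 without any 1 control library or without curcumol replicate 2. The cause of the other shifts was not tested. Of 239 such comparisons of counts or the median, 221 stayed within 1.5 times or 1 SD. Within-group deviations of same-numbered control and curcumol libraries correlated at 0.02, -0.01 and 0.08. Still, 2 of 3 control libraries correlated best with the curcumol library of their own number. With so few libraries, these values cannot decide whether the numbers pair the samples. With the replicate number as a block the median was -1.56, 5955 genes were higher and 6131 lower, and the JAK-STAT3 and NF-kB lists shifted by 1 call each. CXCL5 and CCL20 were limited by depth.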

Other observations

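Several ligand genes that were at or near 0 in control had counts in curcumol, and are named here after their values were seen. LTA, lymphotoxin alpha, was counted 0, 1 and 1 times in the control libraries and 34, 51 and 48 times in the curcumol libraries (edgeR adjusted p = 3.93e-09), and its fitted fold change depends on the prior count. CCL26, an eosinophil attractant, had 0 counts in each control library and 11, 8 and 10 in curcumol. IL13 had 0 in each control library and 5, 17 and 3 in curcumol, highest in replicate 2. For TNF the counts were 2, 0 and 2 in control, and in curcumol 8, 4 and 8. LTB went the other way, with 8, 9 and 12 counts in control libraries against 2, 1 and 2. CCL26, IL13, TNF and LTB were too low to be tested.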
